A study of Mus musculus with 2 samples.

Results

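Ccr2 Ly6c2 monocytes were examined among periosteal cells of Prx1Cre;mTmG mice taken 3 days after a tibial fracture and profiled by droplet single-cell RNA sequencing. Members were chosen by measured values of rule genes. A cell was a member if it held at least 2 unique molecular identifiers (UMIs, that is counted RNA molecules) and at least 5 UMIs per 10000 of Ccr2 and Ly6c2 together, and stayed under 4 gates. These were C1qa, C1qb and C1qc under 10, S100a8 and S100a9 under 500, the precursor proteases Elane, Prtn3, Mpo and Ctsg under 10, and EGFP under 3 UMIs per 10000, each as a sum. By this rule 342 of the 14463 day-3 cells were members (2.36%, exact 95% binomial interval 2.12 to 2.63). They were compared with the 5426 C1q macrophages of the same library, cells with C1q genes at 10 UMIs per 10000 or more (37.5%). In the uninjured library 4 of 4431 cells met the same rule (0.0903%, 0.0246 to 0.231), and 1586 were C1q macrophages (35.8%).

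The study compared periosteal cells of uninjured mice with those of day-3 fractured mice, 1 library each, and all mice carried Prx1Cre and mTmG. The Prx1 promoter drives Cre in limb mesenchyme, and Cre switches the mTmG reporter from membrane tdTomato to membrane EGFP, so blood-derived cells should hold no EGFP. Although the labels name the source as Prx1-derived cells, all live cells were loaded, and the EGFP gate set the monocytes apart from marked cells: 280 of the 342 had no EGFP UMI and the others up to 2.75 per 10000. The levels are those of cultured cells: periosteum was kept as explants at 33 °C with serum (20%) and the growth factor bFGF (10 ng/mL). The labels give growth to 80% of confluence in one place and no expansion in another. Neither the age nor the number of mice is given in the sources used here. The day-3 library held cells of both sexes: 252 monocytes held the female transcript Xist alone, 29 held Y-linked transcripts alone, 10 held both and 51 neither. In the uninjured library 1 C1q macrophage was female and 1028 were male by the same reading, so injury, sex and library cannot be told apart between the libraries, and results are given within the day-3 library. Its 16332 barcodes held 227191961 UMIs (median 7030), against 4573 barcodes and 94034112 UMIs (median 19366) in the uninjured library. The libraries shared 3 barcodes, none of them a member. Their barcodes came from largely different sets, although the labels give the same kit: the first 6 bases took 960 forms at day 3 and 480 in the uninjured library, with 129 in common. Such sets would share few barcodes in any case, and the effect on the shares of cells was not tested.

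Classical monocytes are made in bone marrow and enter blood and then injured tissue through the chemokine receptor Ccr2, which binds Ccl2 and Ccl7. The surface protein Ly6C, of which Ly6c2 encodes the main form on these cells, marks them in mice. In tissue they can lose Ly6C and become macrophages, which carry complement C1q, scavenger receptors and a large lysosomal system, or take on features of antigen-presenting cells. In bone injury such cells are known as early sources of inflammatory signals and as possible osteoclast precursors.

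The values that chose the cells are a description and support nothing. Of the 1341 day-3 cells past the Ccr2 and Ly6c2 threshold, the C1q gate removed 293, the S100 gate 391, the protease gate 283 and the EGFP gate 32, in that order. Ccr2 and Ly6c2 together ran from 5.02 to 67.9 UMIs per 10000 in the monocytes, with a median of 13.1. Both genes were seen in 197 cells, Ccr2 alone in 110 and Ly6c2 alone in 35. Summed over cells, Ccr2 was at 940.5 CPM (counts of the gene, scaled to the same total number of UMIs in every group) in monocytes and 77.4 CPM in C1q macrophages, and Ly6c2 at 634 and 36.5 CPM. C1q genes were at 0 UMIs in 164 of the monocytes (48.0%), and no monocyte exceeded 9.75 C1q UMIs per 10000. Within 1 UMI per 10000 of the Ccr2 and Ly6c2 threshold lay 26 members, with a median of 5.41, and 38 cells just below it, with a median of 4.56. Within 2 UMIs per 10000 of the C1q threshold lay 25 members and 19 cells outside. The threshold on Ccr2 and Ly6c2 was also met by 293 C1q macrophages (5.40%). In GRCm38 coordinates, Ccr2 (ENSMUSG00000049103) lies on chromosome 9 from 124101950 to 124113557, Ly6c2 (ENSMUSG00000022584) on chromosome 15 from 75108158 to 75111970, and Chil3 (ENSMUSG00000040809) on chromosome 3 from 106147554 to 106167564.

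Against C1q macrophages, most monocyte markers that the rule did not use were higher in monocytes. The lists were drawn up with earlier results of these data known, and Chil3 was given beforehand as a marker of these cells. The counts are thus a description, not a test of the label. Of the 17 monocyte markers measured at 10 CPM or more, 13 were at least 1.5-fold higher in monocytes than in C1q macrophages and none was 1.5-fold lower, and the median log2 ratio was 1.59. Over all 8404 genes at that level, 6.79% were 1.5-fold higher or more and 23.1% were 1.5-fold lower or more (29.9% together), with a median of -0.22. Of 12 macrophage markers, 7 were at least 1.5-fold lower and none higher (median -0.97), while Trem2, a lipid-sensing receptor, was at 539.6 and 458 CPM, Csf1r, the receptor for macrophage growth factor, at 414 and 488 CPM, and Apoe, a lipid carrier, at 2908 and 4362 CPM in monocytes and macrophages. Several defining genes of other cells had no UMI, although other genes of their lists were present. Ly6g of mature neutrophils, Xcr1, Clec9a and Ccr7 of dendritic cells, Cd3e of lymphocytes, and Ace and Cd300e of non-classical monocytes had no UMI in 2903816, which allows up to 1.03 CPM. Of 8 neutrophil markers measured 4 were at least 1.5-fold higher in monocytes than in macrophages and 3 lower, of 7 non-classical markers 3 and 2, and of 5 osteoclast markers 2 and 0. As a sum, the neutrophil markers were at 925 CPM in monocytes, 651 CPM in macrophages and 45012 CPM in the 520 cells at or over the S100 gate, called neutrophils here. The monocyte markers outside the rule summed to 5894 CPM in monocytes and 3454 CPM in macrophages. They summed to more in neutrophils (10484 CPM), EGFP lineage cells (6322 CPM) and precursors (6308 CPM), the cells at or over the protease gate but under the others. This sum does not set the monocytes apart from those groups. Mesenchymal markers summed to 70.6 CPM in monocytes, 323 CPM in macrophages and 3836 CPM in EGFP lineage cells, and osteoclast markers to 450 and 257 CPM in monocytes and macrophages. Non-classical markers summed to 576 and 1019.8 CPM in the same order. What these levels contribute to the ratios was not tested. Depth differed little between the compared groups, at a median of 6898 UMIs and 2397.5 genes per monocyte and 5573 UMIs and 2347.5 genes per macrophage, with mitochondrial shares of 4.29% and 4.33%.

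With both groups from 1 library there was no replicate, so no test was run. Every ratio is CPM in monocytes over CPM in C1q macrophages, with a 95% interval that covers counting error alone. A level of 50 CPM in monocytes or in macrophages was reached by 3584 genes. Of these, 77 (2.15%) were 2-fold higher or more in monocytes and 245 (6.84%) were 2-fold lower or more, 8.98% together. The median log2 ratio of these genes was -0.20. With TMM scaling it was 0.01, and by that scaling 140 genes passed 2-fold on the higher side and 142 on the lower, so the balance of higher and lower genes rests on the scaling. TMM scaling multiplies every ratio by the same factor, so the 15 highest and 15 lowest genes, picked for large differences, could not change side by it. Hp and Mrc1 lay on the same side in cells of either sex. Female monocytes and macrophages held Hp at 221 and 11.1 CPM and Mrc1 at 61.2 and 428 CPM, and male ones held Hp at 231 and 6.33 CPM and Mrc1 at 82.2 and 412 CPM.

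**Figure D1:**
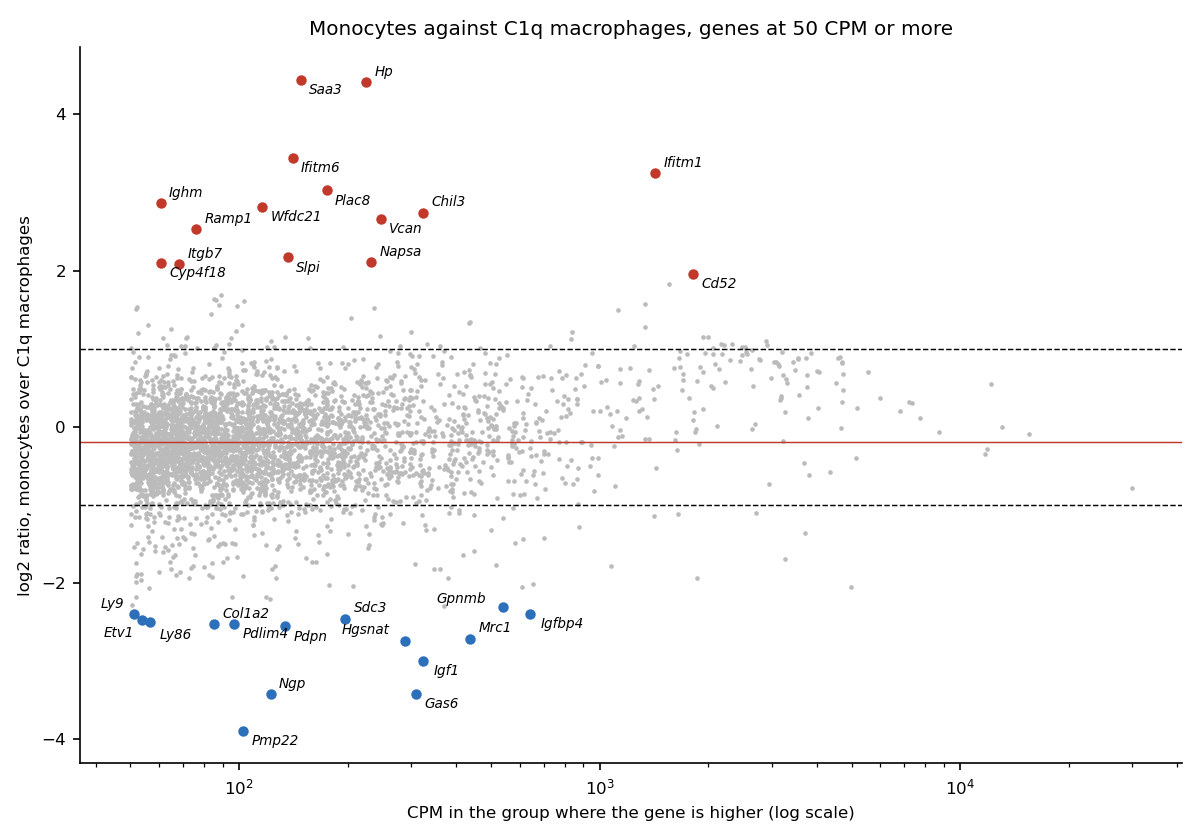
Log2 ratio of monocytes over C1q macrophages (y axis) against CPM in the group where the gene is higher (x axis, log scale), 1 point per gene at 50 CPM or more. Dashed lines mark 2-fold, the red line the median of -0.20; Saa3 and Hp lie at the top, Pmp22, Ngp and Gas6 at the bottom.

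Acute-phase, secreted and host-defence genes led the monocyte side. Saa3, a serum amyloid A protein, was at 148 CPM in monocytes and 6.80 CPM in macrophages, 21.8-fold higher (95% interval 18.6 to 25.6), and Hp, the haemoglobin scavenger haptoglobin, at 225 and 10.6 CPM, 21.3-fold higher (18.7 to 24.2). These were very differently spread over the cells. Saa3 was seen in 12.3% of monocytes and the 10 richest held 67.3% of its UMIs, so that without them the ratio was 7.36, whereas Hp was seen in 48.8% of cells and kept a ratio of 15.5. The chitinase-like Chil3, a common marker of these cells, was at 324 and 48.4 CPM, 6.70-fold higher (6.18 to 7.25), and 4.06-fold without its 10 richest cells. Wfdc21, a small secreted protein of neutrophils and monocytes, was 7.05-fold higher and the protease inhibitor Slpi 4.50-fold. Without their 10 richest cells these ratios were 4.29 and 2.61.

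Hp, Chil3 and Wfdc21 are also neutrophil genes, and the C1q macrophages were not gated on S100 genes: 25 of them were at or over 500 UMIs per 10000. In neutrophils of the same library Hp was at 580.0, Chil3 at 5421 and Wfdc21 at 3462 CPM. Against macrophages held to the same gates and under 5 UMIs per 10000 of Ccr2 and Ly6c2, the ratios were larger, 55.7 for Hp, 22.6 for Chil3 and 20.9 for Wfdc21. That set also left out 430 macrophages at or over the EGFP gate and 26 at or over the protease gate. Its limit on Ccr2 and Ly6c2 uses the genes that chose the monocytes, and the part of each gate was not tested. Saa3, unlike Hp, Chil3 and Wfdc21, was lower in neutrophils than in monocytes, at 29.9 CPM. It was at 13.1 CPM in precursors and 0.295 CPM in EGFP lineage cells, also below the 148 CPM of the monocytes.

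Members of the interferon-induced transmembrane family, which restrict entry of viruses, were high together. Ifitm6 was 10.9-fold higher (9.52 to 12.5) at 141 and 12.9 CPM, and Ifitm1 9.49-fold higher (9.11 to 9.88) at 1424 and 150.2 CPM, from 52.6% of the monocytes. Ifitm3 was at 1339 and 452 CPM (2.96-fold) and Ifitm2 at 1122 and 399 CPM (2.81-fold). The list of interferon-response genes as a whole was mixed. Of 12 measured genes in that list 4 passed 1.5-fold on the higher side and 3 on the lower, with a median log2 ratio of 0.03, and Bst2, which tethers viruses, was at 80.6 and 168 CPM.

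Genes of migration and adhesion were mixed. Itgb7, an integrin chain for gut homing, was 4.25-fold higher (3.60 to 4.996) at 68.2 and 16.1 CPM. The formyl peptide receptor Fpr2 was at 52.0 and 17.9 CPM (2.90-fold) and the chemokine receptor Ccr1 at 256 and 169 CPM (1.52-fold). The complement receptors C5ar1 (207 and 583 CPM, ratio 0.355) and C3ar1 (190 and 387 CPM, 0.490) were lower. Of 15 such receptors 4 were at least 1.5-fold higher and 5 lower, and of 12 adhesion genes 3 and 2. Cx3cr1, the receptor that rises as classical monocytes turn into patrolling ones, was at 151 and 131 CPM, 1.15-fold apart, and the integrin Itgam at 358 and 336 CPM.

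Other leading genes were Vcan, a proteoglycan of the classical monocyte, at 247 and 39.0 CPM (6.33-fold, 5.78 to 6.93), Plac8 at 175 and 21.5 CPM (8.15-fold) and Cd52, a small surface glycoprotein of leukocytes, at 1816 and 467 CPM (3.89-fold, 3.77 to 4.01). Cd52 was the most even of them, seen in 95.6% of the monocytes. Plac8 was seen in 31.0%, and its ratio was 4.83 without the 10 richest cells. The immunoglobulin heavy chain gene Ighm was 7.27-fold higher at 60.6 and 8.34 CPM. Napsa, an aspartic protease, was at 233 and 54.1 CPM (4.30-fold), the calcitonin receptor partner Ramp1 at 76.1 and 13.2 CPM (5.78-fold) and the lipid hydroxylase Cyp4f18 at 60.6 and 14.1 CPM (4.29-fold). The coagulation factor gene F10 was 11.6-fold higher at 48.9 and 4.22 CPM, and Ms4a4c 11.4-fold at 35.8 and 3.15 CPM.

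**Figure D2:**
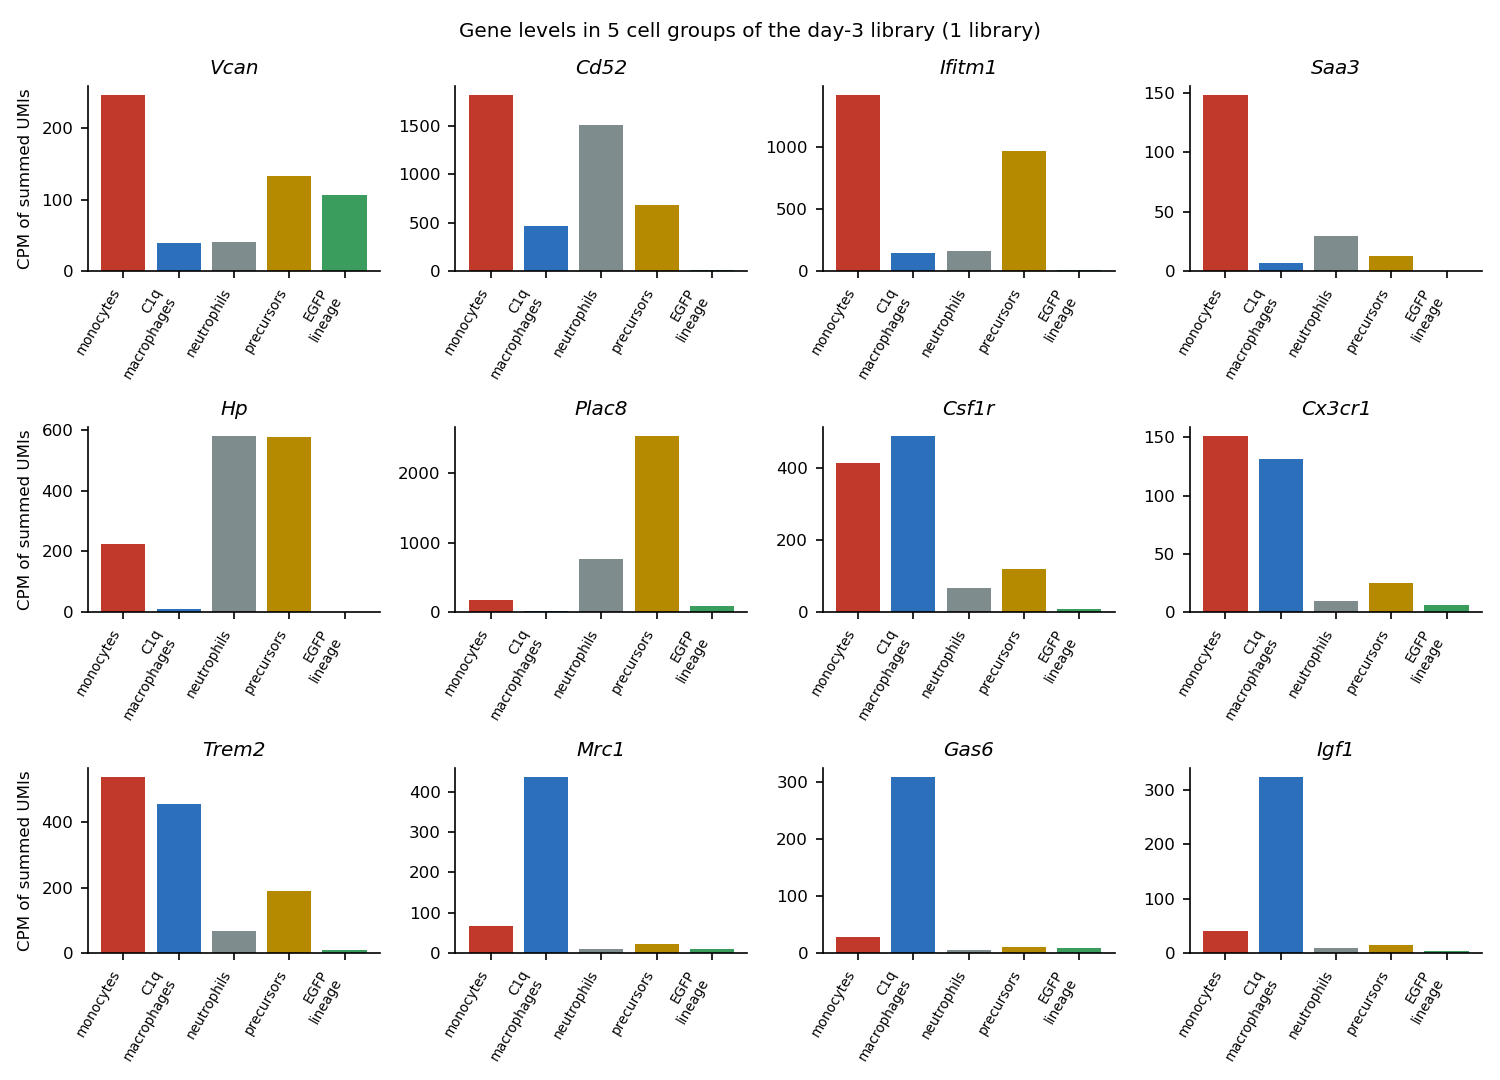
CPM of UMIs summed over each cell group of the day-3 library (y axes, linear from 0) for 12 genes; groups from left to right are monocytes, C1q macrophages, neutrophils, precursors and EGFP lineage cells. Vcan, Cd52, Ifitm1 and Saa3 are highest in monocytes, Hp and Plac8 in neutrophils or precursors, Csf1r, Cx3cr1 and Trem2 are near equal in monocytes and macrophages, and Mrc1, Gas6 and Igf1 are highest in macrophages.

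Shares of cells were compared at an equal depth of 2000 UMIs, which left 337 monocytes, 4902 macrophages and 3197 EGFP lineage cells (median depths before thinning 6973, 6058 and 31701 UMIs). EGFP lineage cells give a rough gauge of free RNA for blood-cell genes. They were deeper before thinning, so thinning can dilute free RNA more in them. Their shares may thus be too low for the free RNA in monocytes and macrophages, which was not tested. Hp was seen in 30.6% of monocytes, 1.94% of macrophages and 0.250% of EGFP lineage cells, Ifitm1 in 42.1%, 8.67% and 1.60%, and Cd52 in 86.6%, 47.0% and 2.56%. Vcan was seen in 36.2%, 5.63% and 18.4%; EGFP lineage cells held it at 107 CPM, so their share of it is no background. Mrc1, the mannose receptor, was seen in 10.7% of monocytes, 55.8% of macrophages and 2.91% of EGFP lineage cells, and Pf4 in 39.2%, 92.8% and 10.2%. In 435 neutrophils and 268 precursors at this depth, Hp was seen in 60.7% and 59.7%, Ifitm1 in 6.21% and 48.1%, and Cd52 in 89.0% and 54.1%. Ifitm6 was seen in 22.0% of monocytes, 49.2% of neutrophils and 13.1% of precursors, and Slpi in 17.2%, 52.6% and 32.1%. Ramp1 was seen in 12.5%, 24.1% and 39.6%, and Napsa in 39.8%, 34.0% and 42.5%. These genes are thus not particular to the monocytes.

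On the macrophage side, growth factor, scavenger and lysosome genes were among those lower in monocytes. Gas6, which bridges dying cells to phagocyte receptors, was at 28.9 CPM in monocytes and 310.0 CPM in macrophages (ratio 0.0933, 0.0744 to 0.116), the insulin-like growth factor gene Igf1 at 40.6 and 324 CPM (0.125, 0.104 to 0.150) and Mrc1 at 66.5 and 437 CPM (0.152, 0.131 to 0.175). Of 11 growth and angiogenic factors 10 were at least 1.5-fold lower and none higher, with a median log2 ratio of -2.17; with TMM scaling 7 were lower. The progranulin gene Grn was at 639 and 1415 CPM. The scavenger receptor Cd36 was at 162 and 654 CPM (0.248), and Marco, another scavenger receptor, had 2 UMIs in the monocytes against 46.8 CPM in macrophages (ratio 0.0147, 0.00178 to 0.0532). Efferocytosis and scavenger genes were lower in 9 of 23, among them the apoptotic cell receptor Mertk (0.255) and Stab1 (0.320), and higher in 2. The Fc receptor Fcgr1, however, was at 62.0 and 62.3 CPM, and Msr1 at 275.5 and 518 CPM.

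Of 29 lysosome genes 16 were at least 1.5-fold lower in monocytes and none higher (median -0.67); with TMM scaling 11 were lower. The cathepsin Ctsb was at 1011 and 3267 CPM (0.310), Ctsd at 1441 and 3699.7 CPM (0.389), and the asparagine protease Lgmn at 487 and 1866 CPM (0.261), while Ctss, the cathepsin of antigen processing, was at 1057 and 1152 CPM. Iron and haem genes were lower in 6 of 10, none higher: the haem oxygenase gene Hmox1 was at 311 and 1074 CPM (0.290) and the iron exporter Slc40a1 at 10.3 and 50.5 CPM (0.205). Of 16 lipid genes 8 were lower and 1 higher, with the cholesterol exporter Abca1 at 26.5 and 122 CPM (0.217) and the fatty acid carrier Fabp5 at 147 and 611 CPM (0.241), beside Lpl, the lipoprotein lipase, at 501 and 494 CPM. Arg1, the arginase of wound macrophages, was at 47.9 and 159 CPM (0.301), and Gpnmb, a lysosomal glycoprotein, at 109 and 538 CPM (0.202).

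The lowest 15 genes also held Pmp22 (6.89 and 103 CPM, ratio 0.0672) and Pdpn (0.170). Further ones were Hgsnat, Pdlim4, Ly86, Etv1, Sdc3, Ly9 and Igfbp4 (0.150 to 0.190 for these 7). They include a lysosomal acetyltransferase, a syndecan, an ETS transcription factor and an IGF-binding protein. The mesenchymal gene Col1a2 (14.8 and 85.3 CPM, 0.174) and the neutrophil granule gene Ngp (11.4 and 122 CPM, 0.0929) completed the 15. The rule kept cells with EGFP out of the monocytes but not out of the macrophages, of which 430 were over that gate, and EGFP lineage cells held Col1a2 at 935 CPM. With macrophages held to the same gates, the ratios were 0.463 for Col1a2 and 0.241 for Ngp, against 0.179 for Pdpn, 0.0874 for Gas6 and 0.143 for Mrc1.

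Matrix genes fell on both sides. Fn1, the fibronectin of early wound matrix, was at 909 and 525 CPM (1.73-fold), the thrombospondin Thbs1 at 552 and 293 CPM (1.88-fold), Tgfbi at 887 and 558 CPM (1.59-fold), the collagenase Mmp8 at 467 and 232 CPM (2.01-fold) and the crosslinking enzyme gene F13a1 at 480.4 and 330.2 CPM (1.46-fold). The proteases Mmp12 (0.261) and Mmp14 (0.311) and the inhibitors Timp1 (0.324) and Timp2 (0.295) were lower. In all, 4 of 19 matrix and protease genes were at least 1.5-fold higher and 9 lower. Among chemokines 2 of 12 were higher and 6 lower. Ccl2, the ligand of Ccr2, was at 77.5 and 201 CPM (0.386), Ccl7, another ligand, at 21.7 and 74.6 CPM (0.291), and the platelet factor gene Pf4 at 1204 and 4988 CPM (0.241). The cytokine Il1b was at 32.0 and 4.30 CPM (7.44-fold), with 72.0% of its UMIs in 10 cells, whereas Tgfb1 was at 260.3 and 258.5 CPM. No UMI of Il6, Il12b or Nos2 was found in the monocytes, which allows up to 1.03 CPM each.

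Of 31 myeloid transcription factors 19 were within 1.5-fold. Among all 8404 genes at 10 CPM or more, 29.9% were at least 1.5-fold apart, so the factors were no more even than genes in general. On the list 5 were at least 1.5-fold higher and 7 lower (5 and 5 with TMM scaling). Among the lower ones Maf was at 226 and 615 CPM (0.368) and Id3 at 42.0 and 110.1 CPM (0.382). The myeloid regulators Spi1 (449 and 344 CPM), Irf8 (164 and 169 CPM) and Klf4 (42.4 and 43.0 CPM) were within 1.5-fold. Cebpd, an acute-phase regulator, was at 127 and 74.7 CPM (1.70-fold), Egr1 at 52.7 and 28.5 CPM (1.85-fold) and Nr4a1, needed for non-classical monocytes in mice, at 16.9 and 8.42 CPM (2.00-fold). Cycling, counted as at least 3 UMIs over 15 mitotic genes at 2000 UMIs, was seen in 23.4% of monocytes and 24.5% of macrophages, against 43.9% of neutrophils and 64.2% of precursors. The mitotic genes were all within 1.5-fold, and of 20 DNA replication genes 10 were at least 1.5-fold lower in monocytes and 1 higher.

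S100a8 and S100a9, whose products pair as calprotectin, differed in amount in the monocytes. Both are genes of the rule, which limits their sum in monocytes, and the same limit held for precursors and EGFP lineage cells, but not their ratio, so the balance is a description. Monocytes held 5221 UMIs of S100a8 and 1031 of S100a9, 5.06 to 1 (95% interval 4.74 to 5.42), against 1.30 in C1q macrophages, 1.06 in neutrophils, 1.14 in EGFP lineage cells and 4.31 in precursors. Without the 10 cells of each group with most UMIs of the pair, the balance was 7.30 in monocytes, 1.36 in macrophages, 1.06 in neutrophils and 5.34 in precursors. Of 80 monocytes with at least 10 UMIs of the pair, 77 held more S100a8 (96.3%), against 161 of 169 precursors (95.3%), 33 of 41 EGFP lineage cells (80.5%), 70 of 95 C1q macrophages (73.7%) and 297 of 520 neutrophils (57.1%). The shares in monocytes and precursors were near each other. The genes are neighbours on chromosome 3 and are read in opposite directions. Their upstream bases are shown because the pair is unequal, from RefSeq promoter windows in GRCm38.p6 with exon bases left out, in the direction of the gene; capitals mark TTGCNNAA, a spelling of the motif of C/EBP factors.
S100a8 (chr3:90668821-90668977, plus strand): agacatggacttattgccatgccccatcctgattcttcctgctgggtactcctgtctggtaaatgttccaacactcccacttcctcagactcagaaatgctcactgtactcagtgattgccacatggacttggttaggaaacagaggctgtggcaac
S100a9 (chr3:90695722-90695971, minus strand): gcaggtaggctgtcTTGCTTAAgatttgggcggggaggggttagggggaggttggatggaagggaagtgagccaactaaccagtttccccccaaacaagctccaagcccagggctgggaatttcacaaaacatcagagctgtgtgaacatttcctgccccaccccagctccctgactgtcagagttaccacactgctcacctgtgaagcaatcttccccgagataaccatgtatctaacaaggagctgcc
The S100a9 window held the letters at 236 to 229 bases before the start and the S100a8 window did not. Of 32851 promoter windows, 3142 (9.56%) held them on either strand.

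**Figure D3:**
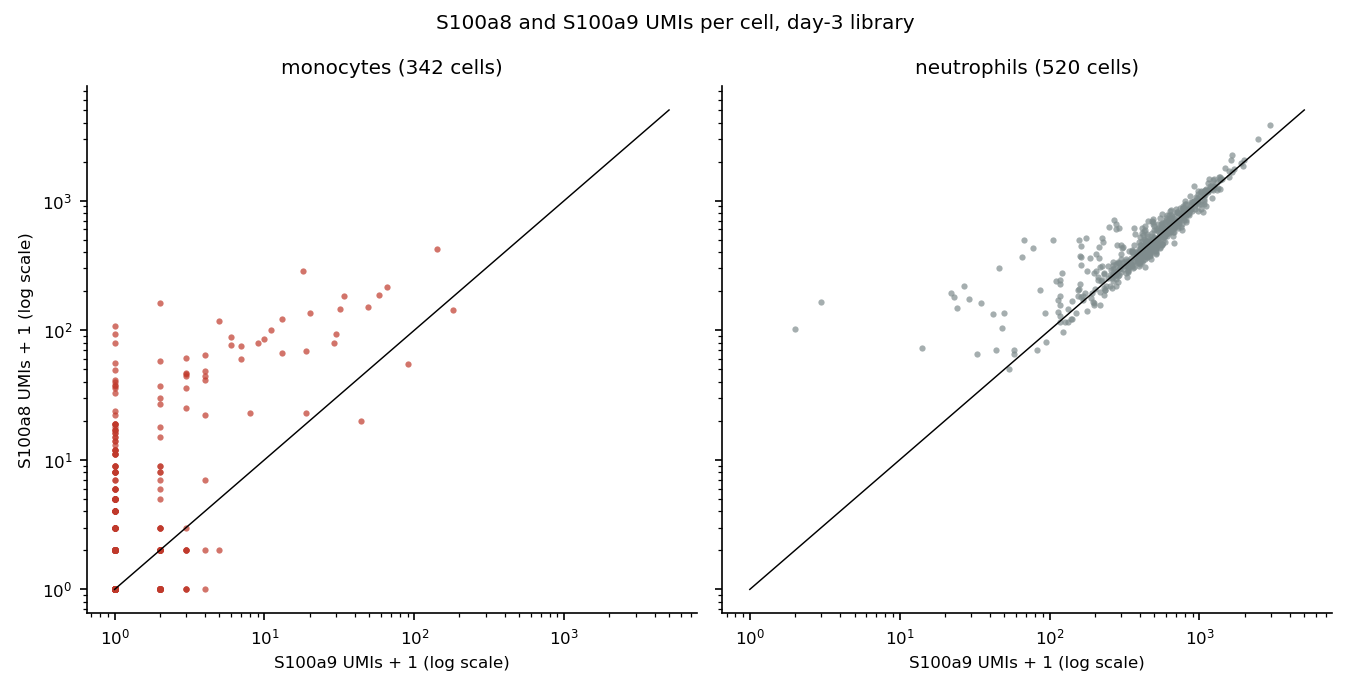
S100a8 UMIs + 1 (y axis) against S100a9 UMIs + 1 (x axis), both on log scales, 1 point per cell, for the 342 monocytes (left) and 520 neutrophils (right) of the day-3 library; the line marks equality. Most monocytes with 10 or more UMIs lie above the line, 77 of 80, while the neutrophils lie along it.

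Other gene pairs were out of balance too. Prtn3 and Elane, serine proteases of early granulocyte and monocyte precursors, are genes of the rule. The protease gate takes away cells rich in them from the monocytes, and not from macrophages, neutrophils or EGFP lineage cells, so their balance is a description that the gate can set. Monocytes held 610 UMIs of Prtn3 and 17 of Elane, 35.9 to 1 (22.2 to 62.0), against 2.88 in macrophages, 1.38 in neutrophils and 3.50 in precursors. A Prtn3 UMI was found in 154 monocytes and an Elane UMI in 13. The protease gate kept 265 otherwise matching cells out, of which 100 were under 10 UMIs per 10000 without Prtn3 and 13 had no UMI of Elane, Mpo or Ctsg. Chil3 outnumbered Ngp 28.5 to 1 in monocytes (942 and 33 UMIs), against 0.396 in macrophages, 0.250 in neutrophils and 9.06 in precursors. Ccr2 to Ly6c2 was 1.48 in monocytes, 2.12 in macrophages, 0.0419 in neutrophils and 0.259 in precursors. The sum of Ccr2 and Ly6c2 chose the monocytes, so this balance is also a description.

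The monocytes differed among themselves along Ly6c2. The 110 cells with Ccr2 alone (949209 UMIs, median 8086) were set beside the 232 with Ly6c2 (1954607 UMIs, median 6177.5). Of 3084 genes reaching 50 CPM in either set, 35 (1.13%) passed 2-fold on the side of Ccr2 alone and 36 (1.17%) on the side of Ly6c2. Genes of MHC class II, which present peptides to helper T cells, had the largest folds on the higher side named here, and 16 cells of the 110 carried nearly all of them. At 2000 UMIs, a UMI of H2-Aa, H2-Ab1, H2-Eb1 or Cd74 was seen in 28.3% of the Ccr2-only cells and 12.1% of those with Ly6c2. H2-Aa had 160 UMIs in the Ccr2-only cells and 0 in those with Ly6c2, at least 109.8-fold higher against a floor of 3 UMIs over the set. H2-Ab1 had 143 and 3 UMIs (98.2-fold, 32.9 to 482), H2-Eb1 71 and 4 UMIs (36.6-fold, 13.7 to 138), and Cd74, the class II chaperone, was at 806 and 55.3 CPM (14.6-fold, 11.9 to 18.0). Ly6a, which encodes the Sca1 antigen, was at 406 and 114 CPM (3.57-fold), Lpl at 926 and 295 CPM (3.14-fold), Crip1 at 875.5 and 299 CPM (2.93-fold) and Cd36 at 269 and 111 CPM (2.43-fold).

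Acute-phase and granule genes were lower in the Ccr2-only cells. Wfdc21 was at 6.32 and 169 CPM (ratio 0.0374), Saa3 at 11.6 and 215 CPM (0.0539), the iron-binding lipocalin gene Lcn2 at 9.48 and 141 CPM (0.0671), Chil3 at 37.9 and 464 CPM (0.0818), Hp at 31.6 and 319 CPM (0.0992) and F13a1 at 171 and 631 CPM (0.271). S100a8, a gene of the rule, was at 101 and 2622 CPM. Csf1r was at 472 and 386 CPM and Trem2 at 583 and 519 CPM, within 1.5-fold. Ccr2, at 961 and 931 CPM, chose the Ccr2-only cells, so its level there is set by the rule. At 2000 UMIs, Chil3 was seen in 5.66% of 106 Ccr2-only cells and 32.0% of 231 cells with Ly6c2, and Hp in 11.3% and 39.4%.

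In the whole set of monocytes, 5 of 7 measured class II genes were at least 1.5-fold higher than in C1q macrophages (median log2 ratio 0.66), with Cd74 at 301 and 129.9 CPM (2.31-fold), and H2-DMa, which helps load peptides, at 89.2 and 27.6 CPM (3.23-fold). Cd74 rested on few cells: with both Ccr2 and Ly6c2 required its ratio was 0.373, and without its 10 richest cells 0.770. H2-DMa was seen in 44.4% of the monocytes. Few cells carried the other class II genes. By a threshold set after the values were seen, 17 monocytes (4.97%) with at least 3 UMIs of H2-Aa, H2-Ab1 and H2-Eb1 held 96.6% of the 381 such UMIs, and 16 of the 17 had no Ly6c2. In these cells Cd74 was at 3851 CPM and Ly6a at 927 CPM, against 83.7 and 165 CPM in the other monocytes, while Chil3 and Wfdc21 had no UMI in them. Csf1r was at 490.4 and 409 CPM. The dendritic cell genes Flt3, Cd209a and Zbtb46 had too few UMIs to compare the sets. Flt3 had 0 UMIs in the 17 cells and 11 in the other monocytes (4.02 CPM), which allows a ratio up to 6.52. Cd209a had 1 and 0 UMIs, and Zbtb46 0 and 1. The 17 cells had a median of 8272 UMIs, against 6742 in the others, and none had a high doublet score. A further 64 monocytes had at least 5 UMIs of Saa3 or of Chil3, 13 of them of both, and no cell was in both the class II and the Saa3 or Chil3 set. Saa3 was concentrated in 23 cells with 92.8% of its UMIs, of which 22 had Ly6c2, and Chil3 in 54 cells with 87.9%, of which 52 had Ly6c2.

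Upstream bases of a pair of class II genes and of Saa3 are shown because these genes mark the opposite ends of the split; they were chosen after the values were seen. In the class II genes capitals mark CTGATTGG, the Y box spelling, and in Saa3 a TTGCNNAA match on the opposite strand.
H2-Aa (chr17:34287824-34287973, minus strand): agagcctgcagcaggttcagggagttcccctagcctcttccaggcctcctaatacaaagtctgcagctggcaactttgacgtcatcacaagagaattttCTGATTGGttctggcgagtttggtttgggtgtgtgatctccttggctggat
H2-Eb1 (chr17:34305721-34305866, plus strand): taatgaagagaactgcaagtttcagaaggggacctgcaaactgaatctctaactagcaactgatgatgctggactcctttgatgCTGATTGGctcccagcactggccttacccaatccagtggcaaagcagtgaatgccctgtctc
Saa3 (chr7:46715701-46715826, minus strand): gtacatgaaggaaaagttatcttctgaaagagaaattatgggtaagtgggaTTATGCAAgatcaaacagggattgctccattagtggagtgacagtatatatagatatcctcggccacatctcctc
The Y box letters lay 51 to 44 bases before the start in H2-Aa and 62 to 55 in H2-Eb1, and were in 1258 of the 32851 windows (3.83%). Of 4 class II genes with a window these 2 held them, and H2-DMa and H2-DMb1 did not. The TTGCNNAA letters lay 99 to 92 bases before the RefSeq start in Saa3, counting 24 exon bases between the stretch shown and that start. They were in 4 of 6 windows of genes on the Ly6c2 side, those of S100a9, Saa3, Lcn2 and Slpi, and in neither those of S100a8 nor Chil3. These are matches of letters, not shown binding.

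**Figure D4:**
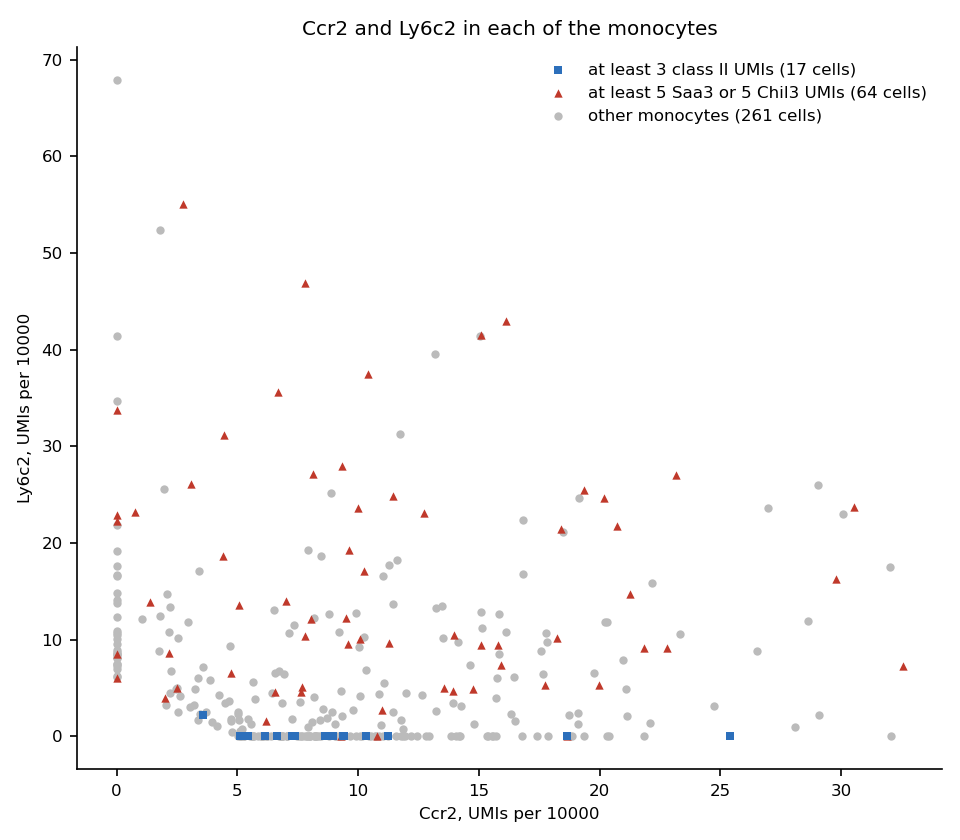
Ly6c2 (y axis) against Ccr2 (x axis) in UMIs per 10000, 1 point for each of the 342 monocytes. The 17 cells with at least 3 class II UMIs (squares) lie at or near 0 Ly6c2, and the 64 cells with at least 5 Saa3 or 5 Chil3 UMIs (triangles) are nearly all above 0.

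Smaller sets of cells carried other genes. Acp5 and Ctsk, enzymes of osteoclasts, had 90.6% of their 898 UMIs in 9 monocytes, which also held Mmp9 at 1756 CPM and Atp6v0d2 at 487 CPM, against 76.5 and 5.86 CPM in the other monocytes. These 9 cells were deep, with a median of 15383 UMIs against 6623, and 5 had a high doublet score; whether they are doublets was not tested. Ifitm1 was highest in 35 cells with at least 40 UMIs, of which 77.1% were cycling without thinning, against 29.3% of the others. Those 35 cells held Plac8 at 386 CPM and Prtn3 at 375 CPM, against 126 and 172 CPM in the others, and S100a8 at 31.2 CPM, against 2205 CPM. Their median depth was 14879 UMIs, against 6294, and its part in these differences was not tested. Without thinning, the 117 cycling monocytes (median 11686 UMIs) held Saa3 at 32.6 CPM, Slpi at 32.6 CPM and Apoe at 843 CPM, against 258, 235 and 4855 CPM in the 225 not cycling (median 5919 UMIs).

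C1q, which the rule held under 10 UMIs per 10000, still ordered the monocytes. The 178 with a C1q UMI (median 8060.5 UMIs) held Mrc1 at 109 CPM, against 12.6 CPM in the 164 without (median 5916 UMIs), 8.64-fold higher (5.17 to 15.4). Arg1 was at 79.1 and 7.85 CPM (10.1-fold, 5.30 to 21.5), Gpnmb at 173 and 26.7 CPM (6.48-fold), Pf4 at 1861 and 363 CPM (5.13-fold), Cd36 at 248 and 52.6 CPM (4.71-fold) and Igf1 at 61.3 and 14.1 CPM (4.34-fold). Of 3069 genes at 50 CPM or more, 44 were at least 2-fold higher (1.43%) and 8 lower (0.261%), the lower ones including Cd74 at 117 and 536 CPM and Saa3 at 65.6 and 254 CPM. Ccr2 was at 938 and 943 CPM and Csf1r at 414.0 and 413.9 CPM. Deeper cells are likelier to show a C1q UMI, and that part was not tested.

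Several genes kept such an order into the macrophages. All day-3 cells within the S100, protease and EGFP gates and with a UMI of Ptprc, Csf1r, Fcer1g or Tyrobp, genes of blood cells, were binned by C1q, at 0, over 0 to 10, 10 to 30 and 30 to 100 UMIs per 10000, with 1390, 2245, 2901 and 2016 cells and medians of 6055.5, 7043, 5630.0 and 5678.5 UMIs. The lowest bins held 163 and 178 of the monocytes, and 1 further monocyte had no UMI of the 4 blood-cell genes. Over these bins Ly6c2 was at 88.8, 46.6, 32.2 and 14.4 CPM, Hp at 37.7, 18.1, 10.7 and 5.31 CPM, Chil3 at 55.9, 41.2, 31.4 and 12.7 CPM, and Vcan at 51.2, 47.5, 39.3 and 28.0 CPM. In the other direction Mrc1 was at 50.7, 142, 417 and 525 CPM, Gas6 at 33.1, 91.8, 278 and 386.5 CPM, Igf1 at 40.5, 131, 297 and 404 CPM and Cx3cr1 at 40.8, 69.6, 131 and 150.4 CPM. Ccr2 differed less, at 113, 90.8, 87.7 and 66.5 CPM, and Cd74 did not keep an order, at 285, 83.2, 99.4 and 164 CPM. Mmp12 ran against the other macrophage-side genes, at 566, 626, 496 and 237 CPM. A further bin, at 100 or more, held 7 cells and did not continue the order, with Ccr2 at 320.6, Mrc1 at 220.4, Gas6 at 180.4, Igf1 at 120.2 and Cd74 at 6793 CPM. These are different cells of 1 library, binned by a gene of the rule, not a course in time.

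**Figure D5:**
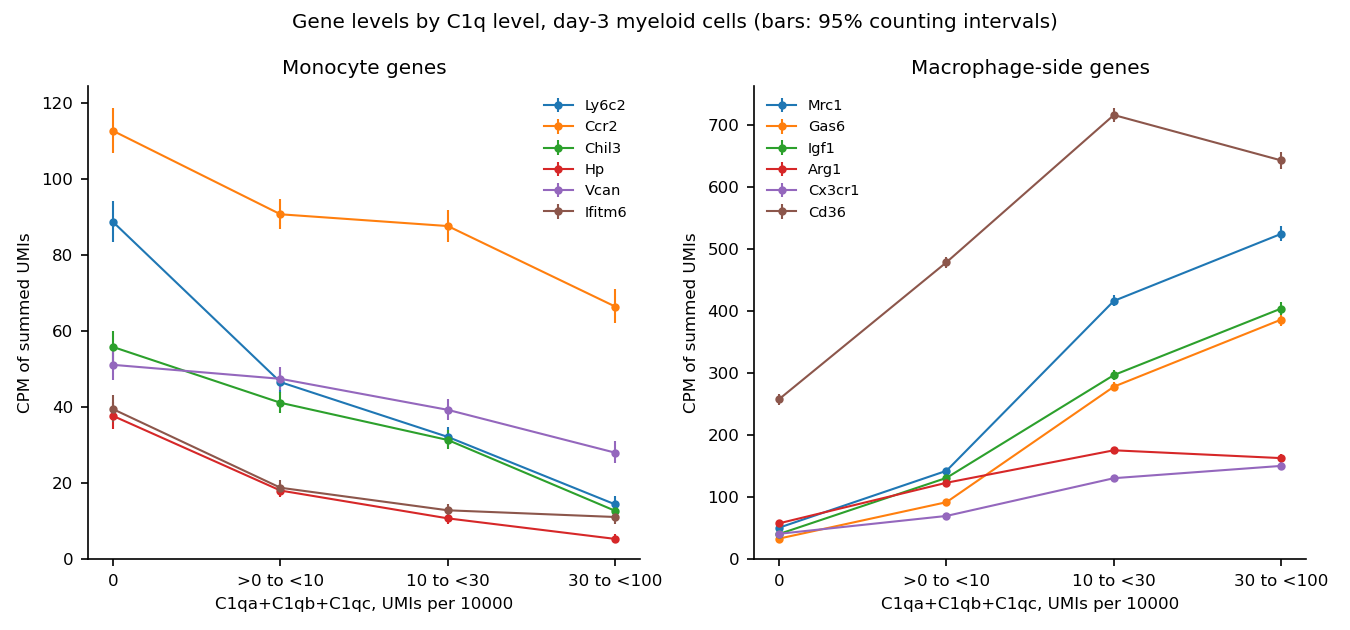
CPM of summed UMIs (y axes) in day-3 cells with a UMI of a blood-cell gene, binned by C1q UMIs per 10000 (x axes, low to high), for 6 monocyte genes (left) and 6 macrophage genes (right); bars are 95% counting intervals, and the 7 cells at 100 or more are not drawn. Ly6c2, Hp and Chil3 decline over the bins, from 88.8, 37.7 and 55.9 CPM at 0 C1q, while Mrc1, Gas6 and Igf1 climb to 525, 386.5 and 404 CPM.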

How the data were processed

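The deposited files hold UMI counts per gene and cell barcode, made with Cell Ranger against mm10 per the submitters' processing notes, which also name Seurat 4.0.1. No source used here says how cell barcodes were called or that free RNA was removed.

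Barcodes with at least 500 genes, at least 1000 UMIs and at most 10% mitochondrial UMIs were kept, 14463 at day 3 and 4431 uninjured. UMIs were summed over the cells of each group and divided by the group's total. Ratios carry exact conditional binomial 95% intervals and shares exact Clopper-Pearson ones, for counting error alone; UMIs that 1 cell shares are not independent, so these intervals are too narrow for a difference between mice. A count of 0 was limited by 3 UMIs. On counts simulated for 3511 genes of this comparison, 50 of 50 genes set 4-fold higher and 49 of 50 set at a ratio of 0.4 passed 2-fold, as did 0 of 3311 unchanged ones. The simulated counts varied by counting error alone. They did not gather in few cells as those of several genes here did, so they give no rate of false calls for these data.

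The members and the gene lists were chosen with earlier results of these data known. Genes named are the 15 highest and 15 lowest ratios at 50 CPM or more (without genes of the rule, mitochondrial, ribosomal and haemoglobin genes and unnamed gene models), the 3 highest and 3 lowest of each list at 10 CPM or more, and all monocyte, macrophage and dendritic cell markers; others were chosen after their values were seen. A planned split of the members into equal sets by Chil3, class II genes or Arg1 could not be made, since 80, 58 and 18 of 337 cells had a UMI at 2000 UMIs. Scrublet's automatic threshold marked 0 cells, so doublets stayed in, and the 1890 highest scores (0.8% per 1000 barcodes), 45 of them monocytes and 773 macrophages, were removed as an alternative. Other alternatives changed the scaling (edgeR TMM), minimum level, fold, weights, depth, gates, cell quality, cycling and sex. Promoter windows came from RefSeq (GRCm38.p6) and gene positions from GENCODE M21. Python 3.11.15, scipy 1.17.1, scanpy 1.11.5 and edgeR 4.0.16 were used.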

Additional observations from a re-analysis of the deposited data

How the results depend on the processing

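No paired analysis was possible because each condition had 1 library. Against 77 genes at least 2-fold higher and 245 lower, the counts were 140 and 142 with TMM scaling, 204 and 676 at a minimum of 10 CPM, 4740 and 1597 with no minimum and counts of 0 set to 3, 276 and 787 at 1.5-fold, 133 and 370 with cells thinned to 2000 UMIs, and 140 and 438 in male cells alone (29 monocytes). Without cycling cells 131 genes were higher, and with the mean of per-cell values 133; the lower counts, 360 and 325, stayed within 1.5 times. Without the 10 richest monocytes of each gene, chosen after seeing the data, 35 were higher and 487 lower, as that removes UMIs from monocytes alone. Higher genes made up 23.9% of those past 2-fold, against 49.6% with TMM scaling. The 15 highest genes stayed at least 2-fold higher under all 20 alternatives, and the 15 lowest at least 2-fold lower, except Col1a2 against macrophages with C1q at 50 per 10000 or more. Some alternatives could not have changed this. The minimum of 10 CPM and the 1.5-fold threshold left every ratio as it was. No minimum altered only counts of 0, and TMM scaling multiplied all ratios by the same factor.

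The ratio of Cd74 (2.31) turned to 0.373 with both Ccr2 and Ly6c2 required, 0.637 against macrophages with C1q at 50 per 10000 or more, 0.661 without members rich in class II, Acp5 and Ctsk or lymphocyte genes, and 0.770 without its 10 richest cells; the 0.661 and 0.770 came from settings chosen after seeing the data. The cause was not tested.

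The share of members (2.36%) was 1.48% at 4 UMIs and 10 per 10000 of Ccr2 and Ly6c2, 1.36% with both genes, 1.91% and 2.98% with C1q under 5 and under 20, 2.65% at 5% mitochondrial UMIs, 1.79% in male and 2.65% in female cells, and 3.06% with Prtn3 left out of the protease gate, added after seeing the data. Cycling monocytes (23.4%) and macrophages (24.5%) were 15.5% and 15.4% at 1000 UMIs, and 34.2% and 36.8% without thinning. Depth limits genes under 10 CPM, which at 2903816 monocyte UMIs are under 30 UMIs each.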

Other observations

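Oxidase and secreted host-defence genes beyond those described above were mostly at or above the macrophage level. Of 18 measured antimicrobial and granule genes 8 were at least 1.5-fold higher in monocytes and 2 lower, with a median log2 ratio of 0.53; with TMM scaling 11 were higher. S100a11, a calcium-binding protein outside the rule, was at 1552 CPM in monocytes and 435 CPM in macrophages (3.56-fold), while its relatives S100a6 (3792 and 3498 CPM) and S100a4 (2029.7 and 1420.4 CPM) were within 1.5-fold. Cst3, a cathepsin inhibitor, was at 1954 and 1015 CPM (1.93-fold). Of the subunits of the phagocyte oxidase, Ncf4 was at 220.1 and 121 CPM (1.82-fold), whereas Cybb (486 and 448 CPM) and Ncf1 (217 and 287 CPM) were within 1.5-fold. Complement C3 was at 47.2 and 14.2 CPM (3.32-fold), the only one of 8 complement genes higher, beside 4 lower ones.

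Coagulation genes went both ways, 2 of 8 higher and 4 lower. The higher ones were F10 and Thbs1. Among the lower ones, the urokinase gene Plau was at 9.64 and 36.0 CPM (0.268), and its inhibitor gene Serpinb2 at 8.95 and 32.5 CPM (0.276). In class I presentation the heavy chain H2-K1 was at 357 and 579 CPM (0.618), while the immunoproteasome subunit Psmb8 was at 195 and 96.0 CPM (2.03-fold) and Psmb9 at 51.3 and 33.5 CPM (1.53-fold), 2 of 10 being higher and 1 lower (3 and 0 with TMM scaling). Glycolysis and hypoxia genes were close to even, 20 of 24 being within 1.5-fold, with Gapdh at 1704 and 1124 CPM (1.52-fold) and Pgk1 at 603 and 872 CPM (0.692). Of 7 non-classical monocyte markers 3 were higher and 2 lower, of 5 alternative activation genes 2 and 2, and of 9 cytokines 2 and 3. Among them were the sialophorin gene Spn at 22.0 and 7.64 CPM (2.89-fold), Pou2f2 at 112 and 70.3 CPM (1.60-fold) and Il18 at 14.5 and 6.64 CPM (2.18-fold). Of 3 dendritic cell markers measured 1 was higher, Cd24a at 94.7 and 43.0 CPM, and 2 were lower. Endothelial markers were all under 10 CPM in both groups, with none of Emcn and Tie1 in monocytes. Mast cell and basophil markers summed to 2.41 and 9.79 CPM, erythroid ones to 0.344 and 0.161 CPM and lymphocyte ones to 36.5 and 62.3 CPM in monocytes and macrophages.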
